A study of Bos taurus with 22 samples.

Results

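The 6 stress response genes followed here through first calving were TP53INP1, CDKN1A, MDM2, SESN1, CCNG1 and GADD45A. The set was built around TP53INP1, which was selected on its higher postpartum signal in these same arrays, and asks whether other textbook targets of p53 and FOXO factors shared that difference. Members are all probe sets whose only gene symbol in the array annotation is one of these 6 genes, which gave 9 of 24016 bovine probe sets and 6 of 9155 named genes. The samples were subcutaneous white fat from the dorsal region of 11 Holstein heifers, each taken 30 days prepartum and again 14 days postpartum, so 22 Affymetrix bovine arrays in 2 groups of 11. The heifers were 24 to 28 months old, calving for the first time, and raised together on one farm. No dietary treatment was applied, but the labels describe the rations before and after calving separately, so ration and stage cannot be told apart. The 2 samples of a cow carry the same number, and each cow served as its own control.

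The transcription factor p53 is stabilised by DNA damage and other stress, and turns on genes that halt the cell cycle, repair DNA, limit growth signalling or kill the cell. FOXO factors, held out of the nucleus by insulin signalling and released when insulin signalling is low, share several of these targets, CDKN1A, GADD45A and SESN1 among them. In adipose tissue both systems are studied for their part in fasting, insulin resistance and adipocyte ageing.

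TP53INP1 encodes a nuclear and autophagosome protein that binds p53-activating kinases and ATG8 proteins. CDKN1A encodes p21, an inhibitor of cyclin-dependent kinases. MDM2 encodes the ubiquitin ligase that degrades p53. SESN1 encodes sestrin 1, a restraint on the growth kinase mTORC1. CCNG1 encodes cyclin G1, a partner of protein phosphatase 2A in feedback on p53. GADD45A encodes a small protein that acts in DNA repair, demethylation and stress kinase signalling.

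Several arrays stood apart and bear on these genes. The median of 16 skeletal muscle markers (of 26 listed; 4 others on the array were too dim) exceeded the genes' own medians over arrays by 8.16 log2 units in cow 384 postpartum, 7.43 in the prepartum array labelled cow 387, 4.42 in cow 386 postpartum and 2.94 in cow 384 prepartum. The other 18 arrays did not exceed 1.06. The summed muscle signal ran from 10.75 to 15.96 log2 units prepartum and from 10.74 to 16.67 postpartum. The pair labelled cow 387 is in doubt. After subtraction of group means its 2 arrays correlated at -0.09, against 0.18 to 0.43 in the other 10 cows, and BOLA, a class I histocompatibility gene, read 3.56 log2 units prepartum and 12.38 postpartum. KRT10, a keratin of the epidermis, was high before calving in 4 cows, at 9.34 log2 units in cow 331, 12.55 in cow 341, 9.35 in cow 330 and 11.48 in cow 382, and at most 6.90 in any postpartum array. Of 18 adipocyte markers 15 were above the filter used for testing. Among them LEP fell by 1.78 log2 units and LPL by 1.18 (limma adjusted p = 0.0268 and 0.0323), whereas the endothelial markers VWF and TEK rose by 0.66 and 0.61 (limma adjusted p = 0.00392 and 0.0130). Neither list moved as a whole. The adipocyte markers had 10 changes below 0 and 5 above, the latter including ADIPOQ (0.0009), FABP4 (0.08) and CD36 (0.16). The endothelial markers had 7 changes above 0 and 4 below. In all, limma called 3 of 15 adipocyte markers lower (20%) and 2 of 11 endothelial markers higher (18.2%). It also called 2 of 14 fibroblast and progenitor markers (14.3%), PI16 higher and MFAP5 lower. Of all 6984 genes tested, 3.71% were called. None of the testable muscle (16), epidermis (2), macrophage and monocyte (11), neutrophil (5), lymphocyte (9) or erythrocyte (1) markers was called by limma, with 0, 1, 2, 2, 2 and 0 of them, in that order, at an unadjusted p under 0.05. Over all probe sets above the filter, 2852 of 14410 had such a limma p. Without cows 384 and 387, limma also called KRT10 lower (-2.18, adjusted p = 0.0444), 5 adipocyte markers lower (33.3%) and 3 endothelial markers higher (27.3%). In that fit 8.2% of all genes were called. Except for the muscle markers, the part of these differences in the levels of the 6 genes was not tested. In tissue RNA of this kind, fewer cells of a type and less RNA per cell cannot be told apart.

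TP53INP1 was higher postpartum in every cow. Signals of its bright probe set (its identifier ends in _s_at, which marks probes that may match more than 1 transcript) ran from 218 through a median of 280 to 497 in the 11 prepartum arrays, and from 337 through 813 to 1419 in the 11 postpartum arrays. The ranges overlap, but 7 of 11 postpartum arrays lay above the highest prepartum array. The mean change was 1.20 on the scale of log2(signal + 7.78), with an SD of 0.73 over 11 cows and a limma standard error of 0.19, a 2.30-fold difference. It ran from 0.39 in cow 331 to 2.51 in cow 330. These values chose the set and carry no test.

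The cows divided widely in how much TP53INP1 differed. In cow 330 the signal went from 218 to 1275, in cow 346 from 242 to 899, and in cow 341 from 349 to 1419. In cow 331 it went only from 332 to 438, in cow 338 from 481 to 651, and in cow 384 from 233 to 337. The 3 large changes started from prepartum signals at or below 349 and the small ones from 233 to 481, so a low starting level was found on both sides. Of the 4 cows with prepartum keratin, cows 330 and 341 had the 2 largest changes and cow 331 the smallest.

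A second TP53INP1 probe set was dim, with prepartum signals of 2.28, 15.0 and 28.3 (lowest, median, highest) and postpartum signals of 15.0, 24.1 and 47.9. It lay below the filter, a mean of 5.05 log2 units or a signal of 25.3, and was not tested. Its mean change was 0.66 (SD 0.75, n = 11 cows), and it was higher in 10 of 11 cows. The bright probe set, without cows 384 and 387, changed by 1.34 (limma standard error 0.20, n = 9 cows), a 2.54-fold difference in the same direction in 9 of 9 cows. Among all 6984 genes tested, 67 (0.959%) were higher postpartum in every one of the 11 cows, TP53INP1 included. Since TP53INP1 was selected on its postpartum rise, its place among them is no evidence.

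None of the 4 other members bright enough to test passed the threshold over 11 cows, although all 4 had mean changes above 0. The threshold was an adjusted p under 0.05 in limma's moderated test, adjusted over all 14410 probe sets kept. Before adjustment the limma p was 0.0116 for GADD45A, 0.0193 for CDKN1A, 0.0307 for SESN1 and 0.0776 for CCNG1. An unadjusted limma p under 0.05 was common, with 2852 of the 14410 probe sets at that level. Of all genes tested, 259 (3.71%) passed, 108 (1.55%) higher postpartum and 151 (2.16%) lower. The median change of all genes was 0.01 and 52.6% of them had a change above 0.

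**Figure D1:**
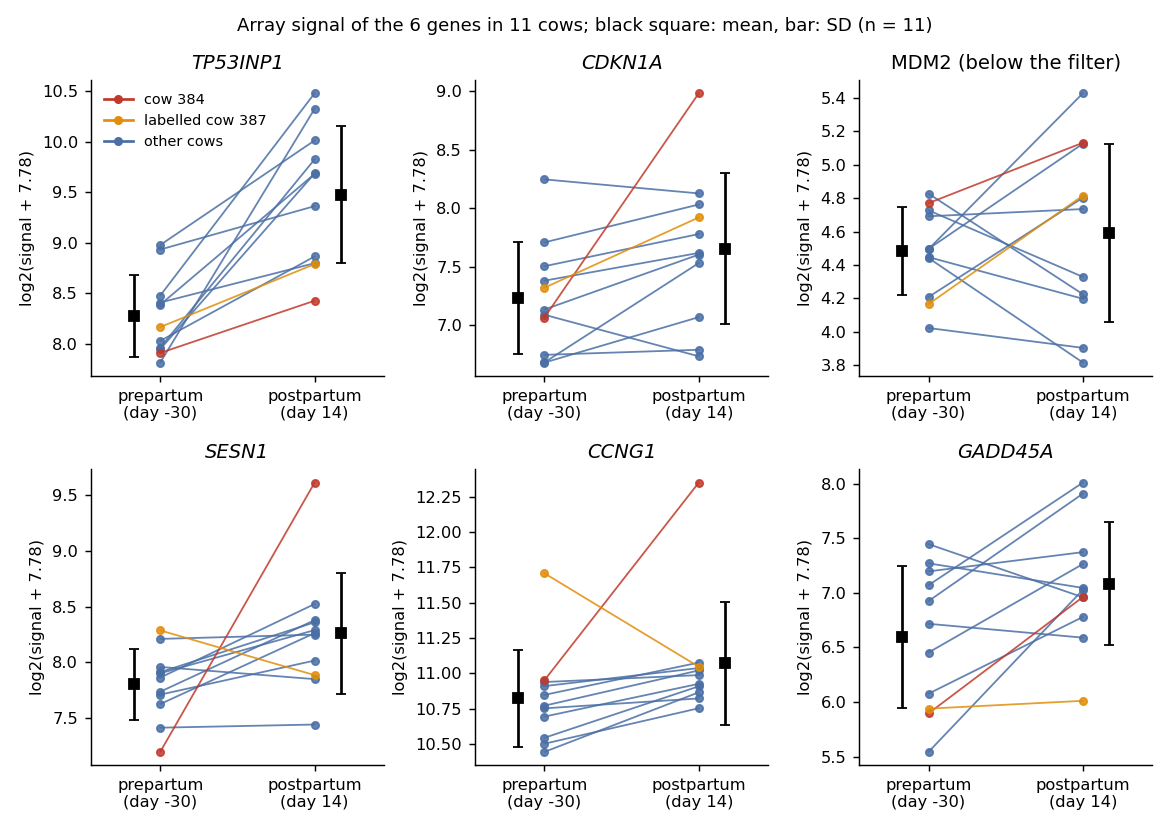
Level of the 6 genes, as log2(signal + 7.78), in the 11 prepartum and 11 postpartum arrays, 1 line per cow, with the group mean and SD beside the lines. The TP53INP1 lines all rise, those of the other genes include falling lines, and cow 384 (red) has the highest postpartum point of CDKN1A, SESN1 and CCNG1.

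CDKN1A signals were 94.8, 133 and 296 prepartum and 98.7, 189 and 499 postpartum (lowest, median, highest of 11 arrays). The 2 groups overlapped almost entirely, and only the array of cow 384 lay above the highest prepartum array. The mean change was 0.42 (SD 0.60, limma standard error 0.16, n = 11 cows), 1.34-fold, with 9 of 11 cows higher. It did not pass in limma (adjusted p = 0.159), while the exact two-sided sign-flip test of this gene alone gave p = 0.0205. Cow 384, whose postpartum array carried the muscle markers, contributed a change of 1.92. The mean change without cows 384 and 387 was 0.23 (limma standard error 0.11, limma adjusted p = 0.206, n = 9 cows).

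MDM2, the feedback inhibitor of p53, was near the lower end of the signals and was not tested in the main limma fit. In the alternative without the filter, MDM2 had a limma adjusted p of 0.820. Its signals were 8.48, 14.8 and 20.6 prepartum and 6.31, 18.9 and 35.3 postpartum. The postpartum values spread on both sides of the prepartum range. The mean change was 0.11 (SD 0.55, n = 11 cows), with 6 of 11 cows higher and an exact two-sided sign-flip p of 0.514.

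SESN1 signals on its bright probe set were 139, 225 and 304 prepartum and 166, 299 and 774 postpartum. Of the postpartum arrays, 5 of 11 lay above the highest prepartum array. The mean change was 0.46 (SD 0.73, limma standard error 0.19, n = 11 cows), 1.37-fold, with 9 of 11 cows higher. The limma adjusted p was 0.196 and the exact two-sided sign-flip p of the gene alone was 0.0283.

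A single cow moved the SESN1 mean. In cow 384 the signal went from 139, the lowest prepartum value, to 774, the highest of all 22 arrays, a change of 2.41. The prepartum array labelled cow 387, also with muscle markers, held the highest prepartum signal, 304. Without cows 384 and 387 the mean change was smaller but far less variable, 0.34 (SD 0.29, limma standard error 0.09), and passed with 8 of 9 cows higher (limma adjusted p = 0.0459). It did not pass without cow 384 alone (0.26, limma adjusted p = 0.149), without cow 387 alone (0.54, 0.125), or without cows 384, 386 and 387 (0.34, 0.0698).

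The other SESN1 probe sets lay below the filter and were not tested in the main limma fit. Read as alternatives, they had limma adjusted p of 0.296 (the brighter) and 0.948 (the dimmer). The brighter of them changed by a mean of 0.28 (SD 0.32), with 9 of 11 cows higher and an exact sign-flip p of 0.0186. The dimmer, with signals no higher than 13.1 in any array, changed by -0.04 (SD 0.58), with 5 of 11 cows higher and an exact sign-flip p of 0.816.

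CCNG1 signals were 1384, 1739 and 3337 prepartum and 1717, 2022 and 5211 postpartum. Most arrays of the 2 groups lay together, and the extremes on both sides were muscle-marked arrays, 3337 in the prepartum array labelled cow 387 and 5211 in the postpartum array of cow 384. The mean change was 0.25 (SD 0.48, limma standard error 0.13, n = 11 cows), 1.19-fold, with 10 of 11 cows higher. The limma adjusted p was 0.313 and the exact two-sided sign-flip p was 0.0977.

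The CCNG1 change without cows 384 and 387 was 0.22 with an SD of only 0.12. All 9 cows were higher, and the change, 1.17-fold, passed (limma standard error 0.06, limma adjusted p = 0.0399). As for SESN1, leaving out only cow 384 (0.13, limma adjusted p = 0.405), only cow 387 (0.34, 0.116) or cow 386 as well (0.22, 0.0667) did not give a call. In the 9-cow fit 573 of all genes (8.2%) were called, 267 (3.82%) of them higher, so 2 of 4 testable members stood there against that larger background.

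GADD45A signals were 38.9, 97.4 and 167 prepartum and 56.7, 123 and 250 postpartum. The groups overlapped, and 2 postpartum arrays, of cows 341 and 347, lay above the highest prepartum array. The mean change was 0.49 (SD 0.64, limma standard error 0.17, n = 11 cows), 1.41-fold, with 8 of 11 cows higher. The limma adjusted p was 0.124 and the exact two-sided sign-flip p was 0.0293. Over the 9 cows without 384 and 387 the change was 0.47 (limma standard error 0.18, limma adjusted p = 0.134), with 6 of 9 cows higher.

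**Figure D2:**
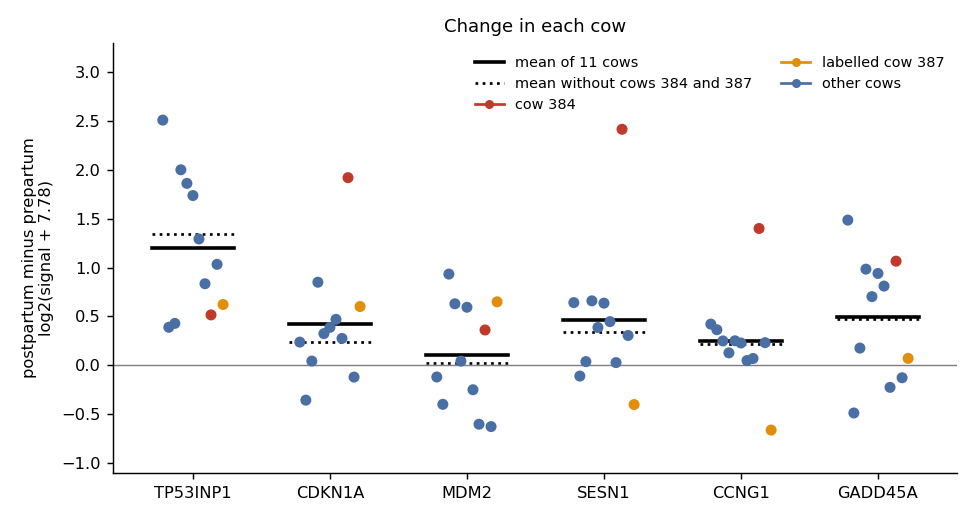
Postpartum minus prepartum difference of each gene in each cow, on the scale of log2(signal + 7.78), with the mean of 11 cows (solid) and without cows 384 and 387 (dotted). TP53INP1 lies above 0 in all 11 cows. Cow 384 is the highest point of CDKN1A, SESN1 and CCNG1 but among the lowest of TP53INP1, and the CCNG1 points of the other cows except 387 lie within 0.05 to 0.42.

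The 4 muscle-marked arrays did not share a pattern in the members. In the postpartum array of cow 384, CCNG1 stood 1.44, SESN1 1.68 and CDKN1A 1.54 log2 units above their own medians over the 22 arrays. In the prepartum array labelled cow 387, CCNG1 stood 0.80 and SESN1 0.35 above, and CDKN1A 0.12 below (-0.12). TP53INP1 was below its median in the same 2 arrays, at -0.37 and -0.63. In the postpartum array of cow 386, CCNG1 stood at 0.02, SESN1 at 0.08, CDKN1A at 0.68 and TP53INP1 at 1.22 from their medians. In the prepartum array of cow 384 they stood at 0.04, -0.74, -0.38 and -0.88, in the same order. Only in the postpartum array of cow 384 were CCNG1, SESN1 and CDKN1A all high. With the muscle marker median as a covariate, the changes were 0.41 for both CDKN1A and SESN1, 0.21 for CCNG1 and 0.48 for GADD45A, and none passed (limma adjusted p from 0.125 to 0.204).

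**Figure D3:**
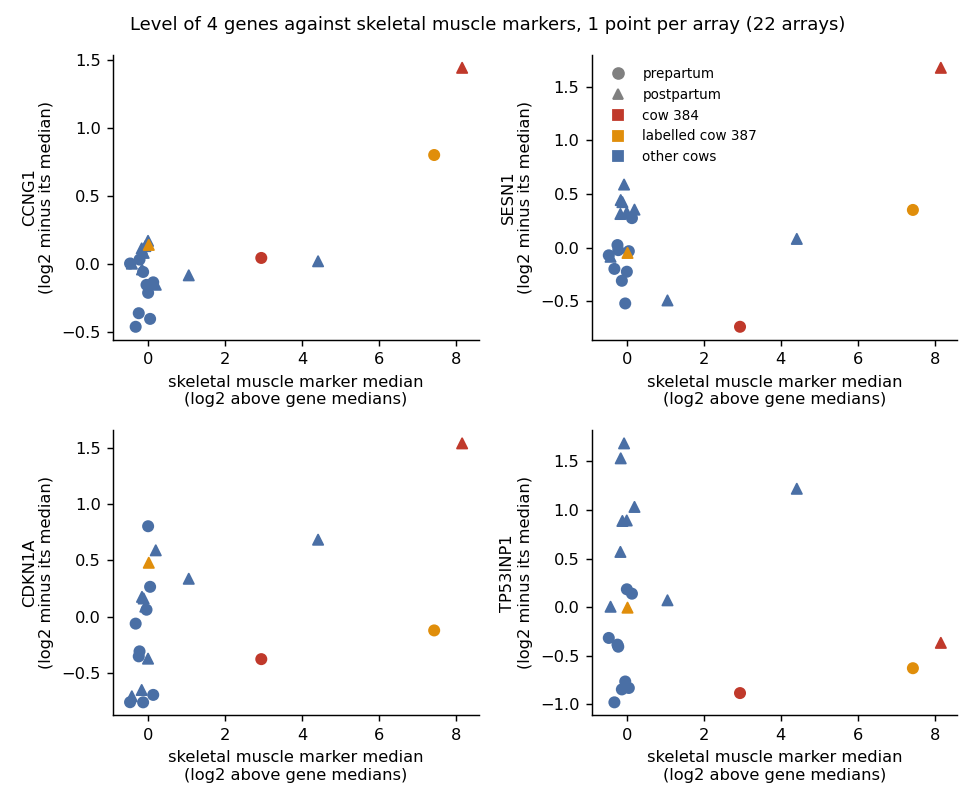
Level of CCNG1, SESN1, CDKN1A and TP53INP1 in each of the 22 arrays, in log2 units from the gene's own median, against the median of 16 skeletal muscle markers. The postpartum array of cow 384, at 8.16 on the muscle axis, is the highest point for CCNG1, SESN1 and CDKN1A, whereas TP53INP1 there lies below its median.

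The arrays were run in what the titles mark as 2 sets, set 1 with 5 cows and set 2 with 6, and the meaning of the codes is not stated. The TP53INP1 change was 1.17 in set 1 and 1.23 in set 2. For CDKN1A it was 0.28 and 0.54, for SESN1 0.33 and 0.56, for CCNG1 0.20 and 0.29, and for GADD45A 0.48 and 0.50. The differences between the sets had limma adjusted p of 0.997 to 0.999 for these 5 genes. Over all probe sets, 0 of 14410 (0%) passed for this difference, with 516 at an unadjusted p under 0.05.

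Sharing was next examined cow by cow. TP53INP1, higher in all 11 cows, was left out of the count. All 4 other genes bright enough to test were higher postpartum in 7 cows (330, 338, 341, 346, 347, 360 and 384). Cow 382 had 3 of 4 higher, cows 386 and 387 had 2, and cow 331, with the smallest TP53INP1 change, had 1. Of all 6984 genes, 42.3% (cow 384) to 57.2% (cow 387) were higher postpartum in a cow. These counts are a description, with no test. The changes of TP53INP1 were then set against those of the 4 other genes over 11 cows, which gave 4 relations. GADD45A had Pearson's r = 0.73 (permutation p = 0.0135 with 100000 resamples, 0.0542 after Benjamini-Hochberg adjustment) and Spearman's rho = 0.61 (permutation p = 0.0507, adjusted 0.148). SESN1 had r = 0.11 and rho = 0.56 (permutation p = 0.795 and 0.0742, adjusted 0.981 and 0.148). CDKN1A had r = -0.01 and rho = 0.25 (permutation p = 0.981 and 0.469, adjusted 0.981 and 0.625). CCNG1 had r = -0.05 and rho = -0.08 (permutation p = 0.884 and 0.817, adjusted 0.981 and 0.817). None of the 4 passed. Without cows 330 and 341, the farthest from the median TP53INP1 change, r was 0.52 for GADD45A, 0.02 for SESN1, -0.07 for CDKN1A and -0.14 for CCNG1. Within set 2 (6 cows) it was 0.60, -0.13, -0.47 and 0.01, in the same order, and set 1 held too few cows.

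Cow 384 decided the relation with SESN1. Its TP53INP1 change was 0.52, among the 3 smallest, and its SESN1 change of 2.41 was the largest of all cows. Without cow 384 alone, r was 0.86 for SESN1 and 0.90 for GADD45A (permutation p adjusted over the 4 relations, 0.00364 and 0.00268), an alternative added after the data were seen. No other cow left out singly gave an adjusted permutation p under 0.05 for any of the 4 genes.

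The relation was close for 2 genes when cows 384 and 387 were left out and cow 386, with a muscle-marked postpartum array, was kept. SESN1 had r = 0.91 and rho = 0.92 over 9 cows (exact permutation p = 0.000987 and 0.00131, adjusted 0.00324 and 0.00406). GADD45A had r = 0.90 and rho = 0.90 (exact permutation p = 0.00162 and 0.00203, adjusted 0.00324 and 0.00406). CDKN1A had r = 0.65 and rho = 0.62 (exact permutation p = 0.0577 and 0.0857, adjusted 0.0769 and 0.114), and CCNG1 r = 0.15 and rho = 0.07 (exact permutation p = 0.692 and 0.880, adjusted 0.692 and 0.880).

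Cows 330, 341, 346 and 347, with TP53INP1 changes of 1.74 to 2.51, had SESN1 changes of 0.39 to 0.66 and GADD45A changes of 0.70 to 1.49. Cows 331, 338 and 382, with TP53INP1 changes of 0.39, 0.43 and 0.83, had SESN1 changes of -0.11, 0.04 and 0.03 and GADD45A changes of -0.49, 0.18 and -0.22. Between them, cow 360 (TP53INP1 change 1.29) had 0.45 for SESN1 and 0.81 for GADD45A, and cow 386 (1.03) had 0.31 and -0.13. Among these 9 cows, larger TP53INP1 differences mostly went with larger SESN1 and GADD45A differences, though not in strict order. The CCNG1 changes of these 9 cows lay between 0.05 (cow 360) and 0.42 (cow 330).

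Leaving out the 2 cows of the 9 farthest from the median (330 and 331) left r at 0.89 for SESN1, 0.80 for GADD45A, 0.72 for CDKN1A and 0.01 for CCNG1, over 7 cows. Over the same 9 cows the median r of 6983 other genes with TP53INP1 was -0.03. The r of SESN1 was matched or exceeded by 2 of those genes (0.0286%), that of GADD45A by 5 (0.0716%) and that of CDKN1A by 243 (3.48%), which is a description across genes of the same arrays. Without cows 330, 331, 341 and 382 r over the 7 cows left, cow 384 included, was -0.12 for SESN1 and 0.38 for GADD45A. With cow 384 out as well, an alternative added after the data were seen, r over the 6 cows left was 0.79 for SESN1 and 0.77 for GADD45A (exact permutation p adjusted over the 4 relations, 0.228 for both). Of the keratin-marked cows, 330 and 341 had the 2 largest TP53INP1 changes, 331 the smallest and 382 a change of 0.83. Leaving them out narrowed the TP53INP1 changes to 0.43 (cow 338) through 1.86 (cow 346), mostly by loss of the largest. No relation passed without the keratin-marked cows, with cow 384 in or out, and the part of the keratin itself was not tested.

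**Figure D4:**
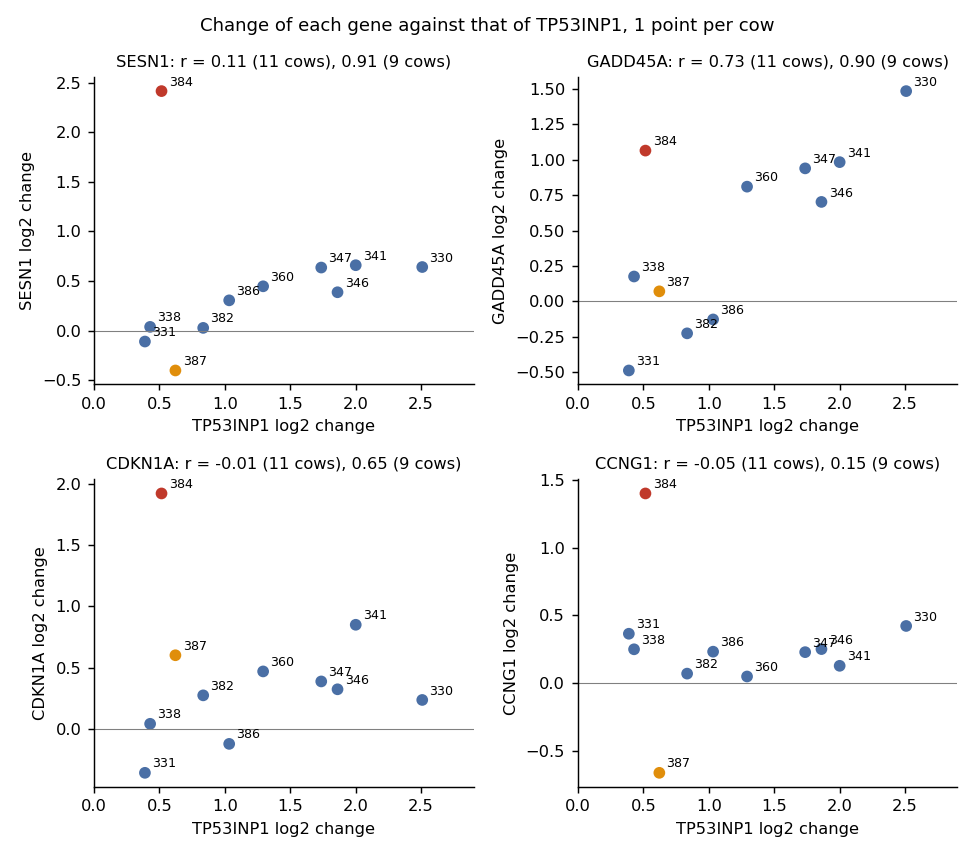
Change of SESN1, GADD45A, CDKN1A and CCNG1 against that of TP53INP1, both as postpartum minus prepartum log2 differences, 1 labelled point per cow. Without cow 384 (red) and the pair labelled 387 (orange), SESN1 (r = 0.91) and GADD45A (r = 0.90) climb with TP53INP1, and CCNG1 (r = 0.15) does not.

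The ranks of SESN1 and GADD45A by likeness to TP53INP1 differed with and without cows 384 and 387. With every cow included and after each group's mean was subtracted, the highest correlations of level over the 22 arrays were those of CYP4V2 (0.81), a fatty acid hydroxylase, NUDT5 (0.81), a nucleotide sugar hydrolase, STX12 (0.80), an endosomal syntaxin, XDH (0.79), xanthine dehydrogenase, and FGF2 (0.77), a growth factor. Among 6983 genes GADD45A ranked 670, SESN1 3014, CDKN1A 4521 and CCNG1 6034. Over the 11 changes the highest were CROT (0.87), a peroxisomal carnitine acyltransferase, LSM5 (0.86), an RNA-binding subunit, HMGB2 (0.85), a chromatin protein, SLC25A33 (0.85), a mitochondrial pyrimidine carrier, and DNASE1L3 (0.84), a secreted nuclease. There GADD45A ranked 50, SESN1 2683, CDKN1A 3540 and CCNG1 3841. Over the 9 changes without cows 384 and 387, SESN1 ranked 3 and GADD45A 6 of the 6983 genes, behind HMGB2 (rank 1, r = 0.94) and XDH (rank 2, 0.92). HMGB2 is also among the listed cell cycle genes that p53 and p21 are known to lower. The 2 arrays of a cow enter each measure.

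The paralogs that could be measured did not pass either. SESN2 changed by -0.19 (limma standard error 0.14, adjusted p = 0.493), GADD45B by 0.01 (0.13, 0.976), CDKN1C by 0.02 (0.19, 0.970) and CCNI, a relative of the G cyclins, by 0.10 (0.08, 0.518). The 2 kept probe sets of CDKN1C disagreed in sign. No probe set carried the single symbol MDM4, TP53INP2, CCNG2, SESN3, GADD45G, CDKN1B, FOXO1 or FOXO3, so those genes are not analysed here. BAX, the pro-apoptotic target, had 1 probe set, which lay below the filter.

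Among the 27 listed regulators of p53 signalling, 13 had no probe set with their single symbol and 2 lay below the filter. Of the 12 tested, 1 (8.33%) was called, beside 3.71% of all genes. TP53BP1, a scaffold of DNA break repair that binds p53, rose from 7.11 ± 0.29 to 7.59 ± 0.18 log2 units (SD, n = 11), a change of 0.49 (limma standard error 0.10, adjusted p = 0.0163), in 10 of 11 cows. It also passed without cows 384 and 387 (0.43, limma adjusted p = 0.0256). The median change of the 12 genes was 0.04.

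The wider list of p53 targets in arrest and repair held 48 genes, the 6 members included. Without the members, 24 were testable. Limma called none higher and 1 (4.17%) lower, beside 3.71% of all genes called, and 5 had an unadjusted p under 0.05. That level was reached by 2852 of all 14410 probe sets. PGF, placental growth factor, an angiogenic ligand, fell from 6.66 ± 0.52 to 5.26 ± 0.47 log2 units (SD, n = 11), a change of -1.39 (limma standard error 0.22, adjusted p = 0.00425), and was higher in only 2 cows. The median of the 24 was 0.01, the same as that of all genes. The 4 testable members beside TP53INP1 had changes of 0.25 to 0.49, and the largest change above 0 among the 24 was 0.28, of ATF3 (limma adjusted p = 0.612). TOB1, an antiproliferative protein, also fell without cows 384 and 387 (-0.74, limma adjusted p = 0.00811). In that fit 2 of the 24 (8.33%) were called, both lower, beside 8.2% of all genes.

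The p53 targets in apoptosis had 13 testable genes of 31, with a median change of 0.03. Of these, 0 were called by limma and 1 had an unadjusted p under 0.05, beside 2852 of all 14410 probe sets. The largest changes were -0.81 for TNFRSF21, death receptor 6 (limma adjusted p = 0.0538), and 0.25 for DRAM1, a lysosomal autophagy inducer (0.325). TNFRSF21 passed without cows 384 and 387, at -0.77 (limma adjusted p = 0.00743), as 1 of 13 (7.69%), beside 8.2% of all genes called in that fit.

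Of the FOXO factors only FOXO4 was measured above the filter, with a change of 0.13 (limma adjusted p = 0.637). The list of FOXO targets held 53 genes, some members included. Apart from the members, 27 were testable and 2 (7.41%) were called, both higher, beside 3.71% of all genes called and 1.55% called higher. PDK4, the kinase that shuts pyruvate out of the citric acid cycle, rose from 10.39 ± 0.55 to 11.14 ± 0.58 log2 units (SD, n = 11), a change of 0.74 (limma standard error 0.16, adjusted p = 0.0205), in 10 of 11 cows. TRIB1, a pseudokinase that guides ubiquitin ligation, rose from 7.77 ± 0.44 to 8.47 ± 0.41 log2 units, a change of 0.70 (limma standard error 0.12, adjusted p = 0.00567), in 11 of 11 cows. The median of the 27 was 0.09.

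The FOXO targets called without cows 384 and 387 were 6 higher and 1 lower of 27 (25.9%), beside 8.2% of all genes called in that fit and 3.82% called higher. Those higher were FBXO32 (0.79), an atrophy ubiquitin ligase, PDK4 (0.76), TRIB1 (0.67), BNIP3 (0.64), a mitophagy receptor, SOD2 (0.51), mitochondrial superoxide dismutase, and INSR (0.42), the insulin receptor. PRDX3, a mitochondrial peroxiredoxin, was lower (-0.33). FBXO32, which skeletal muscle also expresses, changed by 4.02 in cow 384 and by -1.42 in the pair labelled cow 387, and did not pass over 11 cows (0.89, limma adjusted p = 0.163).

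**Figure D5:**
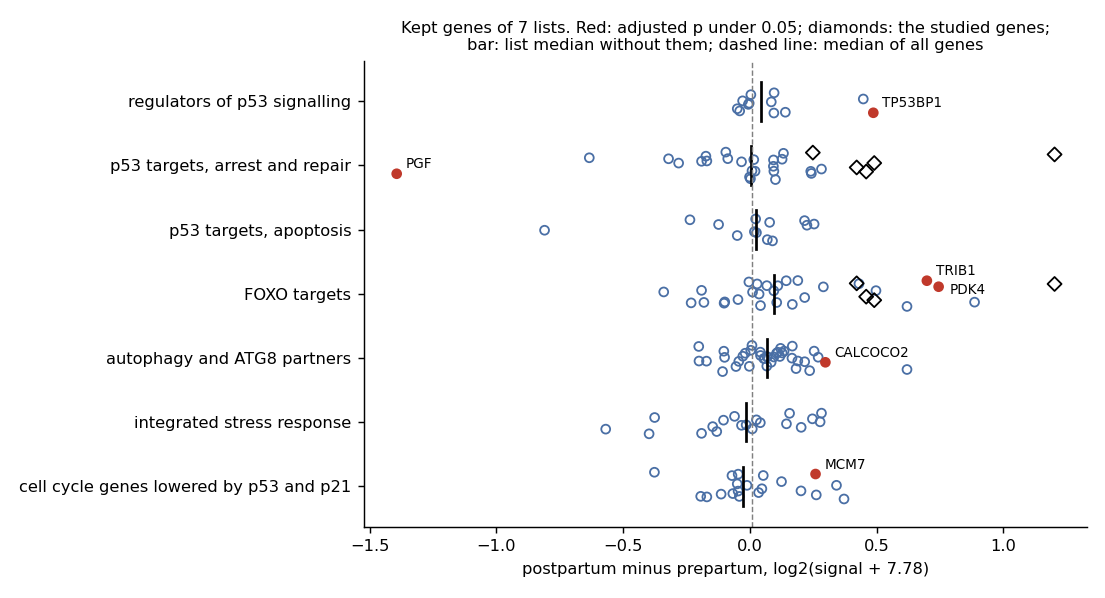
Postpartum minus prepartum change, on the scale of log2(signal + 7.78) and as a mean of 11 cows, of every gene above the filter in 7 lists, with called genes filled in red and the studied members as diamonds (repeated where they belong to several lists). List medians, taken without the members, lie between -0.03 and 0.09, near the median of all genes at 0.01, and the 6 named red points are the called genes.

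Autophagy genes, the other field in which TP53INP1 acts, had 38 testable genes of 44, and 1 (2.63%) was called, beside 3.71% of all genes. CALCOCO2, a selective autophagy receptor, rose from 9.16 ± 0.17 to 9.46 ± 0.12 log2 units (SD, n = 11), a change of 0.30 (limma standard error 0.07, adjusted p = 0.0233), in 11 of 11 cows. The median was 0.07. Without cows 384 and 387, 3 were called higher, CALCOCO2 (0.31), BNIP3 (0.64) and the ATG8 protein GABARAPL2 (0.28), and OPTN, another receptor, was lower (-0.26). These are 10.5% of the 38, beside 8.2% of all genes called in that fit.

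The integrated stress response had 19 testable genes of 28 and a median change of -0.01. It had 0 genes called by limma and 3 at an unadjusted p under 0.05, beside 2852 of all 14410 probe sets. Its largest changes were -0.57 for the transcription factor ATF5 (limma adjusted p = 0.158) and -0.40 for the lipoprotein receptor VLDLR (0.296). Both passed without cows 384 and 387, lower postpartum (-0.50 and -0.55, limma adjusted p = 0.0346 and 0.00888). They were 10.5% of the 19, beside 8.2% of all genes called in that fit. Cell cycle genes that p53 and p21 are known to lower had 20 testable genes of 49, since 19 were dim and 10 had no probe set with their single symbol. Of the 20, 1 (5%) was called, beside 3.71% of all genes, and 4 had an unadjusted limma p under 0.05, all of them higher postpartum. The called gene, MCM7, a subunit of the replicative helicase, rose by 0.26 (limma standard error 0.07, adjusted p = 0.0438) in 11 of 11 cows. The median of the 20 was -0.03.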

How the data were processed

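Transcripts were measured on 22 Affymetrix bovine arrays of 11 heifers. The submitters' processing notes name MAS5 as the tool with which the authors made the values, and the deposited values are linear signal intensities. No settings and no build are named in the sources read here, and no coordinates or sequences were used. The 2% trimmed mean was 125.03 on every array, so arrays had been scaled as a whole, with medians of 39.9 to 47.4. The number of arrays limits the precision.

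After removal of 112 controls from 24128 probe sets, 13292 had 1 symbol, 86 several and 10638 none. Of these symbols 13263 were updated through the Entrez identifier to a RefSeq gene table (ARS-UCD2.0), 2 through an accession, and 27 were kept. Values were taken as log2(signal + 7.78), 7.78 being the median 20th percentile of the arrays, so folds of dim genes are understated. A probe set was kept if its mean was at or above the 40th percentile, and a gene was read from its brightest kept probe set. Groups were compared by the moderated test of limma (version 3.58.1 in R 4.3.3) with cow as a block, a trend of variance with intensity, and p-values adjusted over the kept probe sets by Benjamini-Hochberg. On simulated data with 100 probe sets changed at each size among 14410, it recovered 92% of changes of 1 log2 unit and 51% of those of 0.5, with 14 false among 157 calls. For a difference between array sets it recovered 95% of those of 2 log2 units and 45% of those of 1. The simulated noise was independent for each probe set and array, so arrays that stand apart as a whole were not represented.

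The members, the gene and marker lists (10 and 9), the tests and the cows left out were chosen with earlier results of these data known. Named genes were the members, the called genes of each list (at most 3; where none, the 2 largest changes), fixed paralogs and regulators (1 of them is not reported here), and the 5 most correlated genes per measure. Genes called only without cows 384 and 387, ATF3, and the muscle, keratin, BOLA and marker genes of the array checks were named after their values were seen. The cow numbers pair the samples, as the series design describes paired sampling. Alternatives varied block, pseudocount, normalization, filter, variance model, test, array weights, muscle covariate, array set, probe set and left-out cows. Python 3.11.15 and matplotlib 3.10.9 were used.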

Additional observations from a re-analysis of the deposited data

How the results depend on the processing

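Over all probe sets, 494 were called, 291 by an ordinary paired test, 1076 with array weights, 1070 without cows 384 and 387, 950 when cow 386 was left out too, 6 without the keratin-marked cows 330, 331, 341 and 382, 69 in array set 1 alone and 0 in array set 2 alone (limma, with 1526 at an unadjusted p under 0.05). Leaving out each cow in turn gave 242 (cow 382) to 969 (cow 384). Counts also moved by over 1.5 times without cow 341 (263), 347 (314), 360 (265), 330 (280) and 346 (247). Without the replicate block that pairs arrays by cow, 338 were called, and no member changed its call.

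No tested member beside TP53INP1 was called in 26 of 27 alternatives, and 2 were without cows 384 and 387, SESN1 (0.34) and CCNG1 (0.22). All 27 alternatives kept the sign of each of the 4 genes, except that another SESN1 probe set gave -0.039. TP53INP1 kept its sign in 28 of 28, from 0.66 (its dim probe set) to 1.38. The correlation with TP53INP1 passed without cows 384 and 387 for SESN1 (0.91) and GADD45A (0.90), and for both at 0.92 without cows 384, 386 and 387. Leaving out each cow in turn, an added alternative, gave 0.0053 (without cow 387) to 0.86 for SESN1, 0.61 to 0.90 for GADD45A, -0.20 to 0.48 for CDKN1A and -0.29 to 0.34 for CCNG1, each highest without cow 384. The cause of these shifts was not tested. MDM2 and 3 further probe sets lay below the filter, where signal over background limits what can be said.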
